A study of Mus musculus with 48 samples.

Results

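The Tregs of mice given H16R, a mutein of IL-2, were compared with those of mice given WT IL-2, both under isotype control antibody. The comparison was chosen from the sample labels alone, by cell type, antibody and drug, and holds 8 of the 48 RNA-seq libraries of the series, 4 from H16R mice and 4 from WT IL-2 mice. The methods give 4 mice per group and individual mice as separate samples, but the titles of 2 WT IL-2 libraries carry the same number, 3, and they are called 3a and 3b here. Their counts differed by more than sampling noise (chi-square of 29.5 per gene, against 6.29 to 28.8 for the other pairs of the group), and they were taken as 2 mice, on which each n of 4 rests. If they came from 1 mouse, the WT IL-2 group holds 3 mice, and with only 1 of them in the fit 1899 genes (without 3a) or 1569 (without 3b) were called in the comparison described below. All mice were female C57BL/6, aged 8 to 12 weeks. Each mouse received isotype antibody intraperitoneally at 500 µg per dose on the day before and the day of IL-2, then 25 µg of IL-2 subcutaneously, and its spleen was taken on day 4. Both molecules are human IL-2 fused to an IgG1 Fc without effector function, and H16R carries arginine in place of histidine at residue 16 of IL-2. Tregs were the fraction bound in a CD25 selection on magnetic columns, after which purity was checked by Foxp3 staining, so they are a bulk population enriched for CD25 and not single sorted cells, and Tcons were the flow-through of the same step. Where named, isotype PBS mice (4 libraries) show the level without IL-2, and mice given MHC II blocking antibody in place of isotype antibody (4 libraries per molecule) show the same comparison under an antibody meant to reduce TCR signals.

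IL-2 binds a receptor of IL2Rα (CD25), IL2Rβ and the common γ chain, and signals through JAK1 and JAK3 to STAT5, which raises Foxp3, Il2ra and feedback genes such as Cish and Socs2. Tregs hold high CD25 and depend on IL-2 from other cells for their survival and function. The histidine at residue 16 lies where IL-2 meets IL2Rβ, and H16R gives a weaker phospho-STAT5 signal than WT IL-2 in vitro. Signals of the TCR, which Tregs receive from peptides on MHC II, act beside IL-2 to keep Tregs activated.

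Total expected counts, which are read counts that need not be whole because reads of several origins are shared out, ranged from 41.0 to 46.15 M with WT IL-2 and from 32.91 to 48.68 M with H16R. Values are given as CPM, the counts of a library per 1 M reads, scaled by edgeR's TMM. Of the H16R libraries, replicate 3 lay apart on the first principal component of the isotype libraries, at 36.0 against 18.2 to 21.8 for the other 3, with the WT IL-2 libraries from −5.6 to 1.9. Summed over 12 B and plasma cell markers, the level was 703 to 824 CPM with WT IL-2 and 226 to 485 CPM with H16R, lowest in H16R replicate 3, against 1610 to 2490 CPM with PBS. Summed over 16 myeloid and dendritic cell markers it was 80.4 to 106 and 73.1 to 79.6 CPM, over 10 CD8 T and NK cell markers 96.6 to 138 and 103 to 116 CPM, and over 10 neutrophil and mast cell markers 2.18 to 6.83 and 2.07 to 2.77 CPM. No marker of these 4 lists was at 0 in all libraries of either group. Of 10 erythroid and platelet markers 9 were among the deposited genes. Over these 9 the sum was 5.26 to 11.4 and 4.92 to 5.88 CPM, with Hba-a2 at 0 in both groups and Ppbp at 0 with WT IL-2. The 7 T cell and Treg markers summed to 5020 to 5620 CPM with WT IL-2 and 5330 to 5470 CPM with H16R. In bulk RNA, fewer cells of a type and less RNA per cell cannot be told apart, and the part of other cells in the results below was not tested beyond the fits with these markers.

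**Figure D1:**
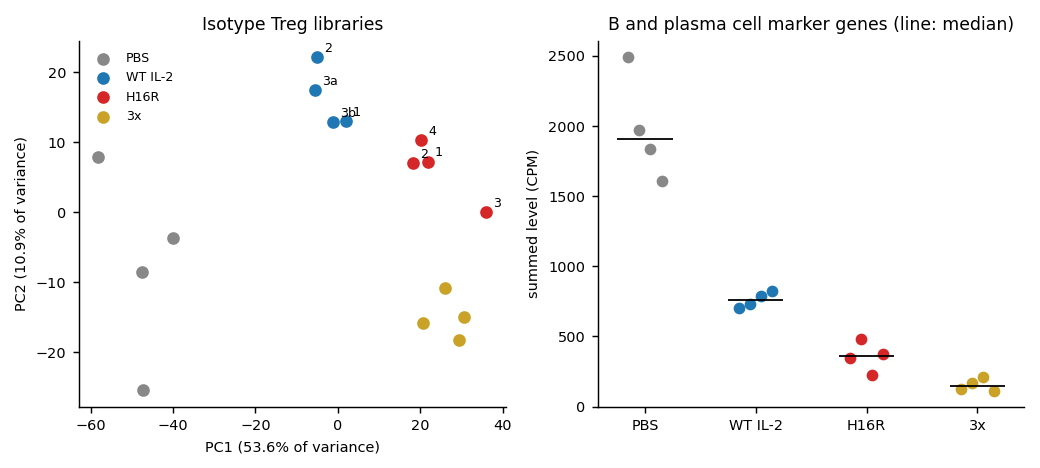
Left, the 16 isotype Treg libraries on the first and second principal components of log2 CPM, colored by treatment, with replicate numbers for WT IL-2 and H16R. Right, the summed level in CPM of 12 B and plasma cell markers in the same libraries, with the line at the median, where every H16R library (226 to 485 CPM) lies below every WT IL-2 library (703 to 824 CPM).

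Of 12390 protein-coding genes tested, 1099 rose (8.87%) and 1210 fell (9.77%) with H16R against WT IL-2, 18.6% in all. A gene was called where edgeR's quasi-likelihood p, adjusted by Benjamini-Hochberg across every tested gene, was under 0.1. Most differences were small: 27 of the genes that rose and 157 of those that fell differed by at least 1 on the log2 scale. The 4 libraries of each molecule did not overlap at 1253 genes higher (10.1%) and 1312 genes lower (10.6%) with H16R. Scaled by total counts alone, with no TMM, 685 genes rose and 1601 fell, since H16R libraries had TMM factors of 0.957 to 0.981 and WT IL-2 libraries 0.992 to 0.998. Without H16R replicate 3, 907 genes were called, 902 of them also called with it, and without WT IL-2 replicate 2, 1516 were called. With the summed B, plasma and myeloid marker level as a covariate, an alternative chosen after seeing the data, 419 genes were called, 383 of them also called without it. That level did not overlap between the molecules, at 801 to 901 CPM with WT IL-2 and 288 to 554 CPM with H16R. The covariate fit therefore cannot separate the level of other cells from the molecule given, and a call lost in it cannot be assigned to either. The call held in all 8 fits that each left out 1 library at 6.74% of genes, 433 that rose (3.49%) and 402 that fell (3.24%).

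**Figure D2:**
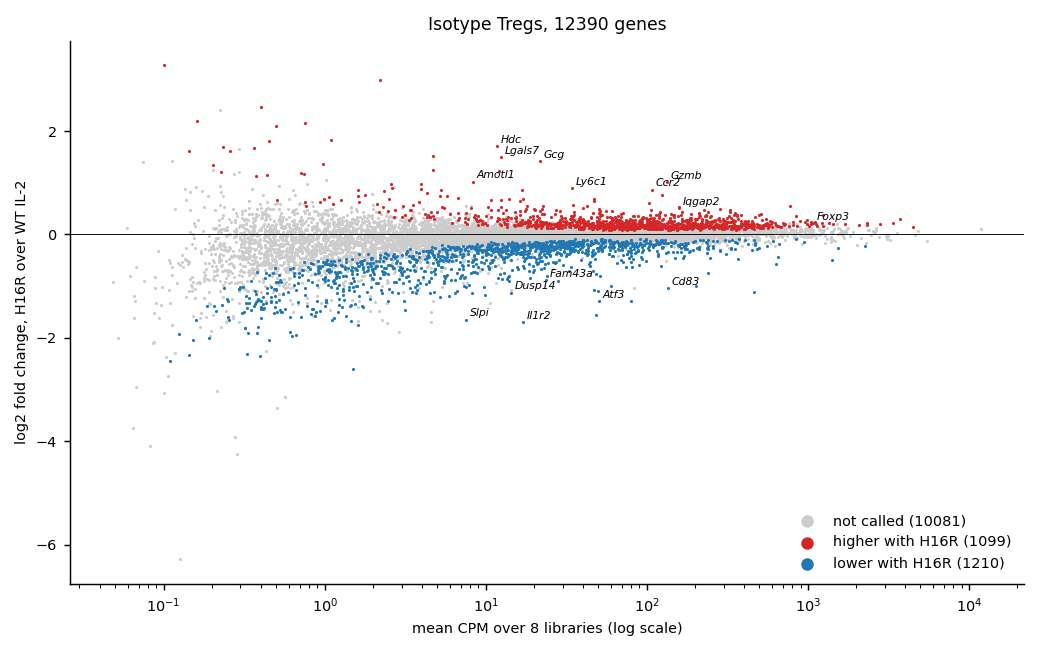
Each point is 1 of 12390 protein-coding genes in isotype Tregs, by mean CPM over the 8 libraries (log scale) and log2 fold change of H16R over WT IL-2, with the 1099 genes that rose in red and the 1210 that fell in blue. The named genes run from Hdc, 1.71 higher, to Il1r2, 1.70 lower on the log2 scale.

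Among the genes of Treg identity, Foxp3, the lineage transcription factor, rose with H16R and was the only called member of 11. Foxp3 (chrX:7573644-7595245, GRCm38) was at 966, 986, 1010 and 1020 CPM with WT IL-2 and at 1110, 1160, 1230 and 1120 CPM with H16R. All H16R libraries lay above all WT IL-2 libraries, a log2 fold change of 0.22 ± 0.06 (SE, n = 4 and 4, edgeR adjusted p = 0.0116), and with PBS the mean was 740 CPM. The antisense gene Flicr overlaps Foxp3, and because the strand setting of the counting is not stated, reads of the overlap cannot be assigned to 1 of the 2. With the marker level as a covariate the Foxp3 difference was 0.11, with an edgeR adjusted p of 0.35. The 10 other identity genes were not called, and their intervals show what size of change the data leave possible. For Ikzf2 (Helios) the log2 fold change was 0.00 with a 95% interval of −0.20 to 0.20. Ctla4, a receptor that takes CD80 and CD86 from antigen presenting cells, was at 1270 to 1370 CPM with H16R and 1330 to 1660 CPM with WT IL-2, with an interval of −0.33 to 0.05. Lrrc32, which holds latent TGF-β on the Treg surface, had an interval of −0.09 to 0.15.

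Of 15 genes of the IL-2 receptor and STAT5 feedback, 3 rose and 2 fell (33.3%, against 18.6% of all genes), with a median log2 fold change of 0.06 against −0.002 over all genes, and without H16R replicate 3, 1 rose and 0 fell. In the covariate fit 0 rose and 1 fell, and Jak1 differed by 0.17 (edgeR adjusted p = 0.109). Il2ra, whose product was used to select the cells, was at 429, 415, 417 and 463 CPM with WT IL-2 and at 480, 496, 551 and 447 CPM with H16R. The groups overlapped by 1 library each, and the interval of the log2 fold change, 0.01 to 0.38, did not pass the test (edgeR adjusted p = 0.174). For Il2rb the interval was −0.06 to 0.19 and for Il2rg, the common γ chain, −0.03 to 0.14. Jak1, the kinase bound to IL2Rβ, rose by 0.24 ± 0.05 (edgeR adjusted p = 0.00167) and Stat5b by 0.11 ± 0.04 (edgeR adjusted p = 0.0637). The 2 STAT5 feedback inhibitors with calls differed in direction. Socs2 rose from 54.7 to 68.1 CPM with WT IL-2 to 72.2 to 102 CPM with H16R (log2 fold change 0.41 ± 0.13, edgeR adjusted p = 0.0331), and its highest library was H16R replicate 3. Without that library Socs2 differed by 0.28 (edgeR adjusted p = 0.223), and with the marker level as a covariate by 0.13 (edgeR adjusted p = 0.69). Cish fell from 229 to 275 CPM to 216 to 234 CPM, with the groups overlapping (−0.16 ± 0.06, edgeR adjusted p = 0.0656), and Pim2, a survival kinase, fell by 0.26. Stat5b was called in 4, and Cish in 3, of the 8 fits that left out 1 library.

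**Figure D3:**
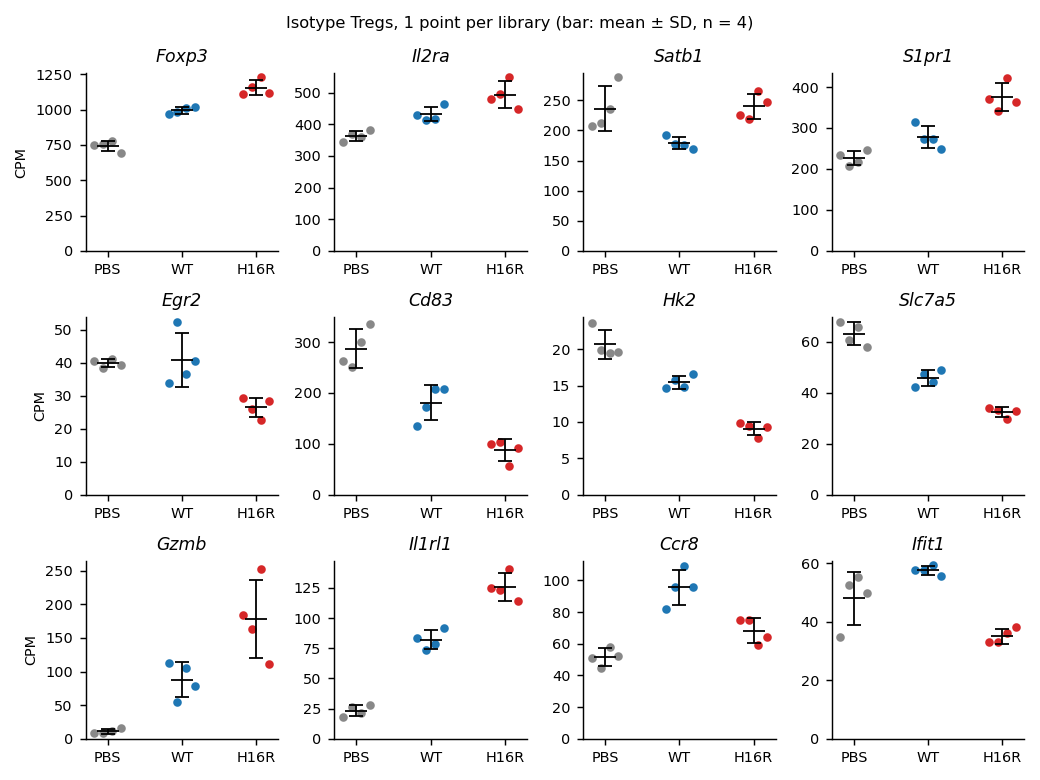
CPM of 12 genes in the isotype Tregs of PBS, WT IL-2 and H16R mice, 1 point per library, with bars at the mean ± SD of 4 mice. Foxp3, Satb1, S1pr1 and Il1rl1 show H16R above WT IL-2, while Egr2, Cd83, Hk2, Slc7a5, Ccr8 and Ifit1 show it below with no overlap, and Gzmb and Il2ra overlap.

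Of 27 TCR response genes, which the TCR induces within hours, 13 fell (48.1%, against 9.77% of all genes), 0 rose and 14 were not called. The median log2 fold change was −0.21, and 8 of the 13 were called in all 8 fits without 1 library. Without H16R replicate 3, 8 fell, with a median of −0.18. Cd83, an activation marker that stabilizes MHC II on the surface, was at 135, 173, 207 and 208 CPM with WT IL-2 and at 99.7, 103, 57.3 and 91.8 CPM with H16R. Every H16R library was below every WT IL-2 library, a log2 fold change of −1.04 ± 0.16 (edgeR adjusted p = 0.00018), and with PBS the mean was 287 CPM. Egr2, a transcription factor induced by the TCR that limits activation, was at 34.0, 52.3, 36.5 and 40.5 CPM with WT IL-2 and 29.2, 25.9, 22.7 and 28.3 CPM with H16R. It fell by 0.62 ± 0.09 on the log2 scale (edgeR adjusted p = 0.000168), while WT IL-2 and PBS mice, with a PBS mean of 39.9 CPM, did not differ by a call (edgeR adjusted p = 0.8). Bhlhe40, a repressor of Il10, fell by 0.57 ± 0.10, the AP-1 subunit Fosb by 0.50 ± 0.12, the orphan nuclear receptors Nr4a3 by 0.60 ± 0.15 and Nr4a2 by 0.58, and the transcription factor Irf4 by 0.28. Nr4a1, the gene most used as a reporter of recent TCR signal, was not called, at 997 to 1040 CPM with H16R and 918 to 1220 CPM with WT IL-2, with an interval of −0.26 to 0.16. Nor were Fos (0.06), Junb (−0.11) or Cd69 (0.03) called. B cells and myeloid cells also express Cd83, Egr2 and Nr4a genes, and with the marker level as a covariate 6 members of the list fell.

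Of 37 genes of the TCR complex and its proximal signals, 10 rose (27%, against 8.87% of all genes), 0 fell and 27 were not called, with a median of 0.07. By total counts alone 7 rose and 3 fell. Prkcq, the kinase that links the TCR to NF-κB, was at 348, 329, 325 and 335 CPM with WT IL-2 and at 408, 420, 488 and 416 CPM with H16R, without overlap. It rose by 0.37 ± 0.06 (edgeR adjusted p = 0.00018). The calcineurin subunit Ppp3ca rose by 0.29 ± 0.05, from 55.1 to 65.4 CPM up to 71.8 to 77.8 CPM, the kinase Txk by 0.33 ± 0.08, the adaptor Grap2 by 0.25 and Cd247, the ζ chain, by 0.21 ± 0.06. The chains Cd3e (0.07), Cd3d (0.12) and Cd3g (−0.03) and the kinases Lck (0.04) and Zap70 (−0.14) were not called. With the marker level as a covariate, 2 of the 37 rose.

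Of 35 TNF receptors and NF-κB genes, 7 rose and 9 fell (45.7% called, against 18.6% of all genes). The split depended on the scaling, with 3 and 12 by total counts alone. It also depended on single libraries, with 2 and 6 without H16R replicate 3, 3 and 6 without WT IL-2 replicate 2, and 3 and 7 without WT IL-2 replicate 3b. Of the noncanonical branch, the subunits Relb and Nfkb2 fell, its kinase Map3k14 rose by 0.14, and Traf3 (−0.13), Birc2 (−0.15) and Chuk (0.10) were not called. Relb went from 94.6 to 114 CPM with WT IL-2 to 77.7 to 90.9 CPM with H16R (−0.35 ± 0.08, edgeR adjusted p = 0.00498), and Nfkb2 from 161 to 206 CPM to 138 to 151 CPM (−0.34 ± 0.08, edgeR adjusted p = 0.00557). Tnfrsf8 (CD30) was at 24.4, 27.1, 26.5 and 32.8 CPM with WT IL-2 and at 18.7, 20.0, 17.3 and 18.8 CPM with H16R, a fall of 0.57 ± 0.11 with no overlap. Tnfrsf4 (OX40) fell by 0.30, while Cd27, a receptor of resting T cells, rose from 293 to 328 CPM to 354 to 407 CPM (0.27 ± 0.06, edgeR adjusted p = 0.00382). The IκB kinase subunit Ikbkb rose by 0.26. Tnfrsf18 (GITR, −0.06) and Tnfrsf9 (4-1BB, −0.21) were not called. With the marker level as a covariate 1 gene rose and 2 fell.

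Of 21 genes of naive and recirculating T cells, 11 rose (52.4%, against 8.87% of all genes), 0 fell and 10 were not called, with a median log2 fold change of 0.23. The count of rises was 11 by total counts alone, 10 without H16R replicate 3 and 6 with the marker level as a covariate. S1pr1, the receptor that lets T cells leave lymphoid organs, was at 315, 274, 274 and 249 CPM with WT IL-2 and at 372, 342, 423 and 363 CPM with H16R (0.43 ± 0.07). Satb1, Foxp1 and Lef1, transcription factors of naive T cells, rose by 0.42 ± 0.09, 0.30 ± 0.07 and 0.27 ± 0.07. The integrin chain Itga6 rose by 0.43 ± 0.07 and Id3, an inhibitor of E proteins, by 0.30 ± 0.08. Klf2, which drives S1pr1, was not called, at 848 to 931 CPM with H16R and 720 to 1050 CPM with WT IL-2, and the interval for Ccr7 was −0.40 to 0.09.

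Of 19 receptors for chemokines and lipids 5 rose and 4 fell (47.4%, against 18.6% of all genes), with 4 and 2 without H16R replicate 3, 5 and 2 without WT IL-2 replicate 3b, and 3 and 1 with the marker level as a covariate. Ccr2, a receptor for inflammatory chemokines, was at 87.0, 68.3, 73.8 and 77.2 CPM with WT IL-2 and at 136, 122, 181 and 119 CPM with H16R, 1.82-fold higher (0.87 ± 0.13, edgeR adjusted p = 0.000168). Ccr8, a receptor of activated tissue Tregs, was at 81.8, 96.1, 109 and 95.6 CPM with WT IL-2 and at 74.8, 74.9, 59.4 and 64.3 CPM with H16R (−0.48 ± 0.11, edgeR adjusted p = 0.00476). Cxcr4, which keeps cells in the marrow and in follicles, fell by 0.46 ± 0.11, Ccr6 by 0.47 and Cxcr5, the receptor for the B cell zone, by 0.26; Cxcr4, Ccr6 and Cxcr5 are also expressed by B cells. Of 23 integrins and adhesion molecules 47.8% were called, against 18.6% of all genes. Of these, 7 rose, among them Selplg (0.40), Itga2 (0.49), Itgb3 (0.35) and Itgb7 (0.23). The 4 that fell were Itgb8 (−0.41), which activates TGF-β, Icam1 (−0.16), Cd44 (−0.16) and Itgal (−0.15). None of these 4 falls was called without H16R replicate 3, without WT IL-2 replicate 2, without WT IL-2 replicate 3b or with the marker level as a covariate, where 6, 7, 7 and 5 genes of the list rose.

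Effector and suppressor genes of Tregs also split. Of 35 tested, 6 rose and 7 fell, with a median of 0.01, against 8.87% and 9.77% of all genes, and 2 rose and 2 fell with the marker level as a covariate. Gzmb, a protease of cytotoxic granules, had the largest rise of the list, at 112, 55.3, 106 and 78.9 CPM with WT IL-2 and at 184, 164, 252 and 111 CPM with H16R, 2.02-fold (1.01 ± 0.22, edgeR adjusted p = 0.00404). The groups overlapped only between H16R replicate 4 and WT IL-2 replicate 1, and both lay above the PBS mean of 11.0 CPM. Il1rl1, the IL-33 receptor ST2, rose from 83.9, 73.4, 78.6 and 92.0 CPM to 125, 123, 141 and 114 CPM (0.61 ± 0.11, edgeR adjusted p = 0.000894). The calcium binding S100a6 and S100a4 rose by 0.49 and 0.32, Lgals1, a galectin, by 0.42 and Anxa2 by 0.37, and none of these 4 was called in all 8 fits without 1 library. Areg, the growth factor amphiregulin of tissue repair, fell from 74.1, 95.3, 103 and 87.8 CPM to 69.0, 67.1, 58.7 and 66.5 CPM (−0.46 ± 0.11, edgeR adjusted p = 0.00701). Ebi3, a subunit of IL-35 and IL-27, fell by 0.45 ± 0.12. Il10 was at 125 to 203 CPM with WT IL-2 and 139 to 203 CPM with H16R, with an interval of −0.07 to 0.48, and Icos (−0.13), Tigit (−0.09) and Prdm1 (−0.12) were not called. Without H16R replicate 3, 2 members rose and 3 fell, and without WT IL-2 replicate 2 or 3b 3 rose and 3 or 4 fell.

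**Figure D4:**
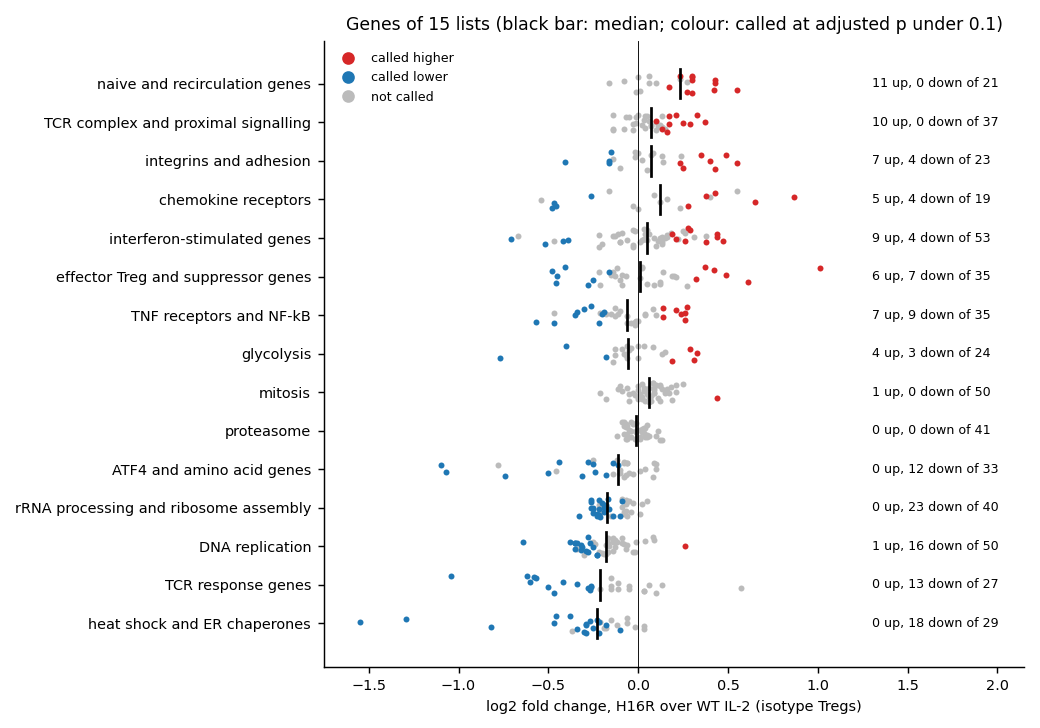
Log2 fold change of H16R over WT IL-2 in isotype Tregs for the tested genes of 15 lists, 1 point per gene, red where called higher, blue where called lower and gray where not called, with the median as a black bar and the counts at the right. The medians run from 0.23 for naive and recirculation genes to −0.23 for heat shock and ER chaperones, while mitosis and proteasome genes lie close to 0.

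Of 40 rRNA processing and ribosome assembly genes, 23 fell (57.5%, against 9.77% of all genes), 0 rose and 17 were not called, with a median of −0.17 and a largest fall of 0.33. With the marker level as a covariate the median was −0.16 and 11 fell, and without H16R replicate 3 or WT IL-2 replicate 3b 15 fell, with medians of −0.16 and −0.14. Rrp12, an export factor of the small subunit, was at 24.8, 28.4, 26.3 and 30.7 CPM with WT IL-2 and at 21.8, 22.2, 21.6 and 22.3 CPM with H16R (−0.33 ± 0.07, edgeR adjusted p = 0.00201). Nop56, of the snoRNP that methylates rRNA, was at 108 to 116 CPM and at 94.4 to 98.6 CPM, and Nop2, an rRNA methyltransferase, at 44.2 to 48.5 CPM and at 37.8 to 41.2 CPM, each without overlap. The PBS means were higher still, at 153 CPM for Nop56 and 59.2 CPM for Nop2. Myc, a transcription factor that binds E-boxes, fell by 0.26 ± 0.09 (edgeR adjusted p = 0.0503), in 4 of 8 fits without 1 library. Of 79 cytoplasmic ribosomal proteins 1 rose and 1 fell, and of 41 snRNP and splicing genes 1 fell. The E-box letters CACGTG were in 8 of the 33 listed genes with a RefSeq promoter (24.2%, of 250 bases before to 50 after the start) against 8.09% of 27025 promoters, in 4 of the 19 that fell and 4 of the 14 that did not. The promoter of Nop2 (chr6:125131633-125131932, GRCm38, + strand, RefSeq) is shown for its match, in capitals:
Nop2: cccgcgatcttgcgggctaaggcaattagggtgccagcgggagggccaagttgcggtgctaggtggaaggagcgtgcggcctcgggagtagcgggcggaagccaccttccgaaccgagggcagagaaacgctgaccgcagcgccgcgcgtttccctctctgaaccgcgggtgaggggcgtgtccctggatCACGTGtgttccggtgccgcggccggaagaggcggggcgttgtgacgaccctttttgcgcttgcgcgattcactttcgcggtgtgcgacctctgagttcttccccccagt

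Of 33 genes of amino acid uptake and synthesis, many of them targets of the stress factor ATF4, 12 fell (36.4%, against 9.77% of all genes), 0 rose and 21 were not called, with a median of −0.11. The covariate fit left 5 falls and a median of −0.06. Among the synthesis genes not called were Phgdh (−0.14), Aldh18a1 (−0.06), Psph (0.10) and Mthfd2 (0.10). Slc7a5, the light chain of the leucine transporter, was at 42.1, 47.3, 44.1 and 49.1 CPM with WT IL-2 and at 34.0, 33.1, 29.6 and 32.7 CPM with H16R (−0.50 ± 0.08, edgeR adjusted p = 0.00017). Its partner Slc3a2 fell by 0.28, the arginine transporter Slc7a1 by 0.31 ± 0.06 and the one-carbon enzyme Shmt1 by 0.44 ± 0.08. Pycr1, of proline synthesis, fell from 2.83, 2.68, 3.05 and 3.46 CPM to 1.33, 1.98, 0.859 and 1.62 CPM (−1.07 ± 0.31, edgeR adjusted p = 0.0245), and with the marker level as a covariate its difference was −0.09 (edgeR adjusted p = 0.863). Asns and Chac1, at 3.4 to 3.96 and 0.912 to 2.2 CPM with WT IL-2, fell by 0.74 and 1.10, and plasma cells also express such genes. Trib3 (0.01), Ddit4 (0.04) and Sesn2 (−0.10), which ATF4 induces, were not called. The letters TGATGNAA of the amino acid response element were in 10 of 27 promoters of the list (37.0%) against 4.51% of all, 3 of 11 among genes that fell and 7 of 16 among the rest. Pycr1 (chr11:120643699-120643998, GRCm38, − strand, RefSeq) is shown as 1 of the 3, with the match in capitals:
Pycr1: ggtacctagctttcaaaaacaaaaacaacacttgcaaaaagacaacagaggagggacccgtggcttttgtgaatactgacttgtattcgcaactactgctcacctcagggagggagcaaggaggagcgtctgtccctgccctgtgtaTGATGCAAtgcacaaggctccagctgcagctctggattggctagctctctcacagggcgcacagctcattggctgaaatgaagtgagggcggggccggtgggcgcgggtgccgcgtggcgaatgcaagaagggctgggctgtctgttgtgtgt

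Of 29 heat shock and ER chaperone genes 18 fell (62.1%, against 9.77% of all genes), 0 rose and 11 were not called, among them Hspa8 (−0.02), with a median of −0.23. Without H16R replicate 3 the median was the same, −0.23, and 5 genes were called, without H16R replicate 4 it was −0.21 with 10 called, and without WT IL-2 replicate 3b −0.20 with 8 called. With the marker level as a covariate the median was −0.12 and 1 gene was called, and 4 were called in all 8 fits without 1 library. Hspd1, the mitochondrial chaperonin HSP60, was at 190, 196, 211 and 223 CPM with WT IL-2 and at 166, 172, 157 and 154 CPM with H16R (−0.34 ± 0.06, edgeR adjusted p = 0.00116). The BiP gene Hspa5 was at 1520 to 1750 CPM and 1370 to 1450 CPM (−0.25 ± 0.06, edgeR adjusted p = 0.00884), and Calr, the lectin chaperone calreticulin, at 499 to 578 CPM and 417 to 452 CPM (−0.29 ± 0.07). Xbp1, a factor of the unfolded protein response that is high in plasma cells, fell by 0.38. Hspa1a varied between mice, at 33.1, 26.6, 75.4 and 152 CPM with WT IL-2 and 26.3, 23.5, 32.5 and 15.4 CPM with H16R, and it shares reads with its near-identical copy Hspa1b. The heat shock element (GAA, TTC and GAA with 2 bases between each) was in 3 of 23 promoters of the list (13.0%, all: 0.662%), those of Hspd1, Hspe1 and Hsph1, and the ER stress element (CCAAT and CCACG with 9 bases between) was in 7 of 23 (30.4%, all: 0.137%), 5 of them genes that fell. Both kinds of chaperone fell, and 1 promoter of each is shown, with matches in capitals: Hspd1 (chr1:55087883-55088182, GRCm38, − strand), whose window overlaps that of Hspe1 on the other strand, and Hspa5 (chr2:34771840-34772139, GRCm38, + strand), both from RefSeq.
Hspd1: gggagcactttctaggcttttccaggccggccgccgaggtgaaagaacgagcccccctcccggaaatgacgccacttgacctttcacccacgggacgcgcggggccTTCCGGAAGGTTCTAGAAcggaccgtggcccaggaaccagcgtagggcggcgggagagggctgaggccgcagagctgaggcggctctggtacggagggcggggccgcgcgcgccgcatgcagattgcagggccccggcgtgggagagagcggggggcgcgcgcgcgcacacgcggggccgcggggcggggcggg
Hspa5: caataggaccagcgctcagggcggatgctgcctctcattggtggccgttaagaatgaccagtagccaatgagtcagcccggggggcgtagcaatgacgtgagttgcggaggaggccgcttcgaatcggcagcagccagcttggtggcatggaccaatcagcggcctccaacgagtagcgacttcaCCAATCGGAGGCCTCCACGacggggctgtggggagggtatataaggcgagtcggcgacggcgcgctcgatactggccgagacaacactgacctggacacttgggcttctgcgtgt

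Of 24 glycolysis genes 4 rose and 3 fell (29.2%, against 18.6% of all genes), and of 76 OXPHOS subunits 1 rose (1.32%). Of the glycolysis genes 1 rose and 2 fell with the marker level as a covariate. Hk2, the hexokinase that activated T cells induce, was at 14.6, 15.7, 14.8 and 16.6 CPM with WT IL-2 and at 9.84, 9.39, 7.79 and 9.3 CPM with H16R (chr6:82725025-82774454, GRCm38). It was 1.7-fold lower, a log2 fold change of −0.77 ± 0.09 (edgeR adjusted p = 5.22e-05, and 0.00692 with the marker level as a covariate), and PBS mice had a mean of 20.6 CPM. Hk1 (0.03), the other hexokinase of the list, was not called. Slc2a3, the glucose transporter GLUT3, rose from 176 to 192 CPM to 224 to 248 CPM (0.33 ± 0.05, edgeR adjusted p = 0.000209), while Slc2a1 (GLUT1, −0.05) was not called. The lactate transporter Slc16a1 fell by 0.40 and Pdk1, a kinase that inhibits pyruvate dehydrogenase, rose by 0.31. Cpt1a, which brings fatty acids into mitochondria, was at 93.6, 82.1, 86.6 and 104 CPM with WT IL-2 and at 178, 143, 162 and 139 CPM with H16R (0.77 ± 0.19, edgeR adjusted p = 0.00875). Of 24 cholesterol synthesis genes, Srebf2 rose (0.23) and Insig1 fell (−0.19).

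Few genes of mitosis differed between the molecules, and a share of DNA replication genes was lower with H16R. Of 50 mitosis genes 1 rose and 0 fell, with a median of 0.06. Mki67 was at 262, 202, 207 and 302 CPM with WT IL-2 and at 303, 284, 280 and 231 CPM with H16R, with an interval of −0.09 to 0.44, and Top2a had one of −0.15 to 0.30. Cdc25b, the phosphatase that starts mitosis, was the gene that rose, from 188 to 248 CPM to 252 to 315 CPM (0.44 ± 0.10, edgeR adjusted p = 0.00449), against 75.4 CPM with PBS. Of 50 replication genes 16 fell and 1 rose (34% called, against 18.6% of all genes), with a median of −0.18. Orc1, of the origin recognition complex, was at 3.28, 3.47, 3.29 and 4.29 CPM with WT IL-2 and at 2.57, 2.29, 2.06 and 2.29 CPM with H16R (−0.64 ± 0.13, edgeR adjusted p = 0.00174). Of the replicative helicase, Mcm3 fell by 0.32 ± 0.08 and Mcm6 by 0.28 ± 0.07, while Mcm4 (−0.03) and Pcna (−0.12) were not called, and E2f2 rose by 0.26. The count of falls was 24 by total counts alone, 9 without WT IL-2 replicate 1, 10 without H16R replicate 4, 5 without H16R replicate 3 and 3 with the marker level as a covariate. The median was −0.14, −0.15, −0.19 and −0.16 in the last 4 of these fits. Among 18 G1 cyclins and CDK inhibitors the inhibitors Cdkn1c (0.47) and Cdkn2d (0.40) and the cyclin Ccnd3 (0.18) rose, and E2f3 (−0.15) fell. These 4 calls are 22.2% of the list, against 18.6% of all genes, and they numbered 1 without H16R replicate 3 and 0 with the covariate.

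Of 53 interferon-stimulated genes 9 rose and 4 fell (24.5% called), with a median of 0.05, where 8.87% of all genes rose and 9.77% fell, so the share that fell was not above that of all genes. The counts were 6 and 2 without H16R replicate 3, 12 and 2 without WT IL-2 replicate 2, 10 and 2 without H16R replicate 1, and 3 and 2 with the marker level as a covariate. Ifit1, which blocks translation of viral RNA, was at 57.5, 57.7, 59.3 and 55.5 CPM with WT IL-2 and at 32.9, 33.0, 36.2 and 38.1 CPM with H16R, 1.64-fold lower (−0.71 ± 0.15, edgeR adjusted p = 0.0029). The ubiquitin-like Isg15 fell from 32.2 to 38.8 CPM to 25.8 to 28.7 CPM (−0.42 ± 0.10), and Mx1 and Rsad2 fell by 0.52 and 0.39. The DNA sensor family members Ifi208 and Ifi213 were among those that rose, Ifi208 from 11.7, 8.41, 10.4 and 9.31 CPM to 13.3, 13.0, 14.6 and 14.1 CPM (0.47 ± 0.11, edgeR adjusted p = 0.00557). Slfn5 rose from 109 to 118 CPM to 139 to 153 CPM (0.38 ± 0.08), and Irf9, Epsti1 and Gbp7 by 0.19, 0.29 and 0.26. Stat2 (0.03) and Irf7 (0.13) were not called. The interferon-stimulated response element (TTTC repeated after 2 bases) was in 23 of 41 promoters of the list (56.1%) against 3.99% of all, in 6 of 9 genes that rose, 3 of 3 that fell and 14 of 29 that were not called. The promoters of 1 gene of each direction are given with matches in capitals, Ifit1 (chr19:34640639-34640938, + strand), with 2 matches, and Ifi208 (chr1:173673415-173673714, + strand), with 1, on GRCm38 and from RefSeq. Every motif was searched on both strands, and in the printed promoters its matches did not overlap those of another motif searched.
Ifit1: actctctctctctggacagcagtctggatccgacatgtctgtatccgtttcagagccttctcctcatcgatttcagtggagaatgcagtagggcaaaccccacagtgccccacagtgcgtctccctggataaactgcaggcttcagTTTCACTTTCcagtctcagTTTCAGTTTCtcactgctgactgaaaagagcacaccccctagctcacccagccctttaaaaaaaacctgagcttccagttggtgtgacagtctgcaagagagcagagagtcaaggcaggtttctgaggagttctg
Ifi208: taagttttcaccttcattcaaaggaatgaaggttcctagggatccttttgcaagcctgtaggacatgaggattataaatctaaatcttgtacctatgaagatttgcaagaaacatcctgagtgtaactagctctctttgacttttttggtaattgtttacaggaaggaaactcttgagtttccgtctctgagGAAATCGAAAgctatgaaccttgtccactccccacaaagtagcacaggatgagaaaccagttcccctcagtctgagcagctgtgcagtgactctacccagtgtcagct

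Iqgap2, a scaffold protein, was at 137, 126, 126 and 135 CPM with WT IL-2 and at 183, 183, 201 and 177 CPM with H16R, with no overlap. It rose by 0.50 ± 0.06 (edgeR adjusted p = 5.22e-05, and 0.00692 with the marker level as a covariate). The adaptor Nck2 rose from 58.7, 52.1, 57.2 and 63.8 CPM to 75.0, 75.4, 79.2 and 67.0 CPM (0.36 ± 0.05, edgeR adjusted p = 0.000168).

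Among 20 survival and death genes 3 rose and 6 fell (8.87% and 9.77% of all genes), 1 rose and 4 fell without H16R replicate 3, and 0 rose and 4 fell with the marker level as a covariate. The genes that fell included both protectors and killers of the BCL2 family. Bcl2l1 (BCL-XL), a protector, was at 50.7 to 61.4 CPM with WT IL-2 and 39.3 to 50.5 CPM with H16R (−0.32 ± 0.06, edgeR adjusted p = 0.00172), and Pmaip1 (NOXA), a killer, was at 96.8, 130, 120 and 118 CPM and at 82.3, 79.5, 72.9 and 91.9 CPM (−0.51 ± 0.08, edgeR adjusted p = 0.000168). Bcl2a1d and Bcl2a1b fell by 0.74 and 0.40 and share reads as near-identical copies, so how the 2 divide is uncertain. The killer Bcl2l11 (BIM) rose by 0.19 ± 0.05 and Fas by 0.26, and Bcl2 (−0.10) and Mcl1 (0.05) were not called. Of 21 TGF-β genes 33.3% were called, and 5 fell, among them Pmepa1 (−0.43), Tgif1 (−0.34) and Skil (−0.32), all induced by TGF-β, and Smad4 (0.18) and Smad2 (0.11) rose. Without H16R replicate 3 the TGF-β falls numbered 1, without WT IL-2 replicate 3b 2 and without WT IL-2 replicate 2 3, while the covariate fit called 1 fall and 0 rises in that list. Of 8 GIMAP genes, GTPases of lymphocyte survival, Gimap9 rose (0.18), and of 41 proteasome genes 0 were called.

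The genes with the largest differences, with a mean of at least 5 CPM and called in all 8 fits without 1 library, were mostly outside these lists. Among the 15 largest rises, Hdc, which makes histamine, was at 5.52, 6.73, 5.58 and 4.37 CPM with WT IL-2 and at 10.4, 17.1, 31.1 and 13.8 CPM with H16R, 3.27-fold higher (1.71 ± 0.39, edgeR adjusted p = 0.00471). Basophils and mast cells also express Hdc, and Mcpt8, a basophil protease, moved with it, at 0.147 to 0.205 CPM with WT IL-2 and at 0.346, 0.341, 1.1 and 0.443 CPM with H16R, with both genes highest in H16R replicate 3, while the mast cell gene Cpa3 was at 0.566 to 0.958 and 0.935 to 1.31 CPM without a call. The part of such cells in the Hdc difference was not tested. Lgals7, a galectin, was at 5.54, 8.11, 6.05 and 6.27 CPM and at 12.9, 16.8, 25.4 and 17.9 CPM (1.49 ± 0.20, edgeR adjusted p = 8.92e-05), and under 1.1 CPM in every PBS library. Gcg, the glucagon gene, was at 8.48, 16.2, 11.4 and 11.1 CPM and at 16.4, 25.5, 29.3 and 54.8 CPM (1.42 ± 0.31). Hdc and Lgals7 were highest in H16R replicate 3, and Gcg in H16R replicate 4. Ly6c1, a surface marker of central and memory T cells, rose by 0.89 ± 0.12 and was at 20.0 to 30.5 CPM with WT IL-2, 38.4 to 54.8 CPM with H16R and 32.1 CPM on average with PBS. The other 9 besides Gzmb and Ccr2 rose by 0.67 to 1.02: Amotl1, Frmd5, Cdhr3, Cpt1a, Nckap5, Acvrl1, F2rl2, Gbp2b and Nhsl2.

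Among the 15 largest falls, Il1r2, the decoy receptor for IL-1, was at 13.8, 48.4, 17.9 and 23.7 CPM with WT IL-2 and at 7.56, 7.87, 3.69 and 12.8 CPM with H16R, 3.26-fold lower (−1.70 ± 0.34, edgeR adjusted p = 0.00184). Atf3, a stress-induced repressor, was at 54.8, 68.0, 78.9 and 86.6 CPM and at 31.1, 32.3, 26.7 and 27.4 CPM (−1.30 ± 0.20, edgeR adjusted p = 0.000168), against 130 CPM with PBS. Slpi, an inhibitor of proteases, fell by 1.66 ± 0.46 and Dusp14, a phosphatase that dampens TCR signals, by 1.13 ± 0.18. Against PBS, Dusp14 was 0.04 lower with WT IL-2 (edgeR adjusted p = 0.863) and 1.17 lower with H16R. Klrk1 (NKG2D), at 14.1 to 17.3 and 7.15 to 10.8 CPM, and the chemokine Xcl1, at 9.12 to 12.1 and 4.27 to 6.15 CPM, are genes of NK and CD8 T cells, and 4 of 10 markers of those cells fell (Klrk1, Klrd1, Ncr1 and Klrb1c), 2 without H16R replicate 3 and 0 with the marker level as a covariate. Zbtb16 (PLZF), of NKT cells, fell by 0.89 ± 0.17. Ckap4 fell by 1.02 ± 0.28, and by 0.17 with the marker level as a covariate (edgeR adjusted p = 0.691). Slc7a10, Ier5l, Ccdc184, Fam43a, Fhdc1 and Adgrg5 fell by 0.86 to 1.18. Of the 30 genes, 19 were also called with the marker level as a covariate, among them Cd83, Atf3, Dusp14, Xcl1, Lgals7, Ly6c1 and Ccr2.

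Jchain, the joining chain of secreted IgM and IgA, was at 580, 622, 632 and 709 CPM with WT IL-2 and at 287, 402, 174 and 310 CPM with H16R (−1.12 ± 0.31, edgeR adjusted p = 0.0181). Of 11 tested B and plasma cell markers 5 fell (45.5%, against 9.77% of all genes), with a median of −1.29, and 0 fell without H16R replicate 3, with a median of −1.18. All 11 were lower with H16R with no overlap between the groups, where 10.6% of all genes were. Of 14 myeloid and dendritic cell markers 3 fell (21.4% called, against 18.6% of all genes), Flt3 (−1.38), Itgax (−0.94) and Siglech (under 0.5 CPM in every library of both groups). The count was 1 without WT IL-2 replicate 2 or 3a or without H16R replicate 3 or 4, and Flt3 alone was called in all 8 fits without 1 library. Of the 8 tested neutrophil and mast cell markers 1 rose, Mcpt8, in 3 of the 8 fits without 1 library. The other 7 were not called, and 6 of the 8 had values below 0, among them S100a8 (−4.25 ± 2.06) and S100a9 (−3.36 ± 1.88), all under 2.1 CPM in every library. DESeq2 called 3 of the 8 lower and the fit on the 8 libraries alone 5.

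The difference between the molecules was not the same in the 2 antibody arms. Under MHC II block 3157 genes rose (25.5%) and 3962 fell (32.0%) with H16R against WT IL-2, and the difference between the 2 antibody arms, tested as an interaction in the same edgeR fit, was called at 2908 genes, 1557 positive (12.6%) and 1351 negative (10.9%). By total counts alone the split was 1813 and 1019. A positive value means that H16R lay higher against WT IL-2 under MHC II block than under isotype antibody. In the MHC II block arm the B and plasma cell markers summed to 1630 to 3860 CPM with WT IL-2 and 600 to 1310 CPM with H16R. The T cell and Treg markers summed to 3260 to 4340 and 4900 to 5230 CPM, and the CD8 T and NK cell markers to 157 to 251 and 276 to 295 CPM. The part of these differences in the interaction was not tested beyond the covariate fit, which holds only B, plasma and myeloid markers. In that fit 2903 genes were called.

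Positive interactions were called at 12.6% of all genes and at larger shares of the cell cycle, proteasome, effector and glycolysis lists, the last with 15 of 24. Treg identity genes had 6 of 11, in an arm where the summed T cell and Treg markers were lower with WT IL-2 than with H16R, as given above. Of 50 mitosis genes 34 were positive and 0 negative: under MHC II block 47 rose, with a median of 0.61 against −0.04 over all genes, and Top2a went from 124 to 142 CPM with WT IL-2 to 202 to 219 CPM with H16R. DNA replication was positive at 35 of 50 and the proteasome at 31 of 41, both with 0 negative, and OXPHOS at 26 of 76 with 0 negative. Mcm6, which fell under isotype antibody, rose by 0.30 under MHC II block, at 176 to 207 CPM with WT IL-2 and 214 to 248 CPM with H16R (interaction 0.58 ± 0.10, edgeR adjusted p = 0.000278). Of 35 effector genes 20 were positive and 2 negative. Gzmb was at 84.8, 75.0, 87.5 and 85.8 CPM with WT IL-2 under MHC II block and at 471, 442, 544 and 681 CPM with H16R (interaction 1.67 ± 0.32, edgeR adjusted p = 0.000947). The summed CD8 T and NK cell markers were also higher with H16R in this arm, and the part of such cells in the Gzmb difference was not tested. Il10, not called under isotype antibody, was at 68.5 to 92.4 CPM and 215 to 273 CPM (1.40 ± 0.20, edgeR adjusted p = 5.17e-05). Ccr8 turned from a fall to a rise, with 31.2 to 51.5 CPM and 55.0 to 67.8 CPM (1.03 ± 0.16, edgeR adjusted p = 0.000117).

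The naive and recirculation genes went the other way, with 11 of 21 negative and 0 positive. Foxp1, higher with H16R under isotype antibody, was at 183 to 210 CPM with WT IL-2 and 159 to 192 CPM with H16R under MHC II block (interaction −0.46 ± 0.09, edgeR adjusted p = 0.00174). Of the 40 ribosome assembly genes 2 interactions were positive and 4 negative, and of the 29 chaperones 0 were positive and 2 negative. Under MHC II block 28 and 22 of them fell, where 32.0% of all genes fell. Hk2 (0.13) and Iqgap2 (0.00) had interactions without a call, and their log2 fold changes under MHC II block were −0.64 and 0.50.

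Of all genes with a mean of at least 5 CPM, the 5 largest positive interactions were those of Spp1 (2.55 ± 0.93), which encodes osteopontin, Gcg (2.13 ± 0.45), Fam20a (2.12 ± 0.30), the vitamin D receptor Vdr (2.09 ± 0.42) and Ifitm1 (1.98 ± 0.54). Gcg reached 67.3 to 85.5 CPM with H16R under MHC II block, against 3.41 to 10.9 CPM with WT IL-2. Spp1 in isotype mice was 54.3 CPM in WT IL-2 replicate 2 and 4.98 to 9.52 CPM in the other 3. The 5 largest negative ones were the macrophage genes Mrc1 (−3.28), Lrp1 (−3.12), Trf (−2.06), Cfp (−1.63) and Nfam1 (−1.27), and they rested on 1 library. MHC II block WT IL-2 replicate 1 held 88.0 CPM of Mrc1, against 1.94 to 4.98 CPM in the other 3, and its myeloid markers summed to 1140 CPM, against 123 to 243 CPM. Without it the values were −0.25, −0.15, −0.47, −0.20 and −0.45, none of them called, with edgeR adjusted p-values from 0.298 to 0.907.

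**Figure D5:**
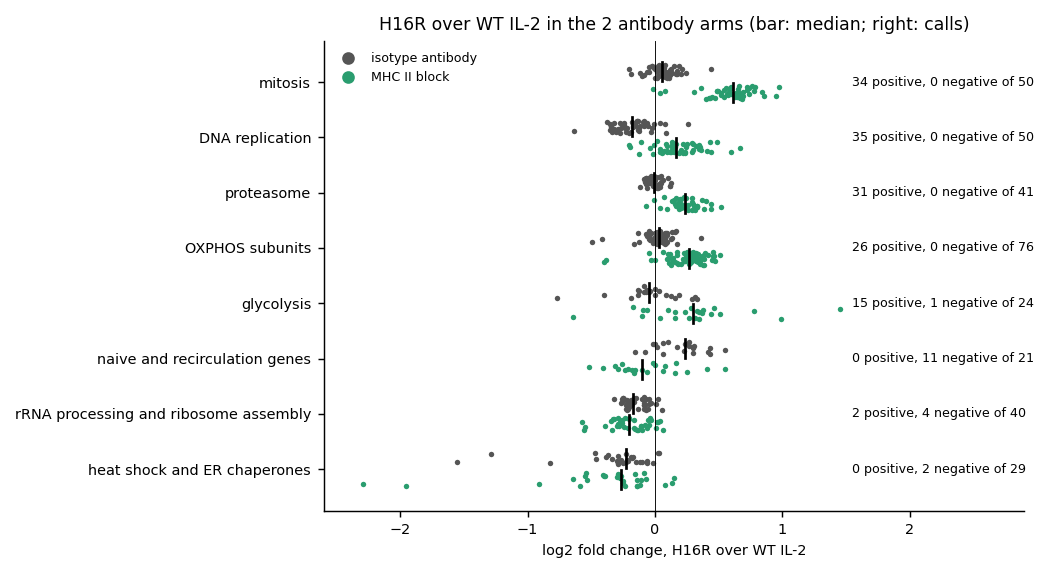
Log2 fold change of H16R over WT IL-2 for the tested genes of 8 lists, in isotype mice (gray) and in MHC II block mice (green), 1 point per gene with the median as a black bar, and at the right the number of positive and negative calls of the difference between the arms. Mitosis genes have a median of 0.06 with isotype antibody and 0.61 with MHC II block, while the median of ribosome assembly genes lies below 0 in both.

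In Tcons, with 2 mice per group, 17 of 12529 genes were called (0.136%), 3 higher and 14 lower with H16R, while 1359 had an unadjusted p under 0.05 and DESeq2 called 323. Atf3 fell there as well, from 82.4 and 73.7 CPM with WT IL-2 to 31.9 and 39.1 CPM with H16R (−1.14 ± 0.11, edgeR adjusted p = 0.00235), and was the gene called in all 4 fits without 1 library. Hk2 fell by 0.56, from 13.7 and 12.7 CPM to 9.03 and 8.85 CPM, and Cd83 by 1.09, while Slc2a3 rose by 0.31. The dendritic cell marker Flt3 fell by 0.76 in Tcons. The 15 myeloid and dendritic cell markers tested there had a median of −0.85, and the 12 B and plasma cell markers one of −0.56. The part of such cells in the Tcon differences was not tested. Ero1l (0.40) and Gpr34 (0.83) rose and Dnase1l3 (−1.11), Plbd1 (−1.04) and Sema7a (−0.94) fell in Tcons, and none of these except Plbd1 (−1.46, edgeR adjusted p = 0.0528) was called in Tregs. Without WT IL-2 replicate 1 the Tcon count was 4080 and without either H16R mouse it was 1, with the lone sample assumed to vary like the other groups.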

How the data were processed

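Spleen Tregs and Tcons were profiled by stranded, poly(A)-selected RNA-seq, with individual mice kept as separate samples. The authors aligned reads to mouse B38 with OSA in Omicsoft Array Suite and deposited expected counts per gene, estimated by RSEM, and FPKM values. Whether counting used strand is not given in the sources used here. The gene model is stated as GENCODE v19, and symbols were matched to GENCODE annotation of GRCm38 here, where 51519 of 53345 (96.577%) matched; symbols without a match, some of them older names, were left out of the protein-coding tests. The deposited DESeq2 (1.30.1) tables hold the authors' own comparisons and were not used.

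Expected counts were rounded to whole numbers, as 72.627% of values above 0 were exactly whole and the rest were not, and CPM were computed from them with TMM. Protein-coding genes with over 0.5 CPM in at least 4 libraries were kept, and 29 genes with an empty cell were left out. The 32 Treg libraries were fitted as 8 groups in edgeR 4.0.16 (R 4.3.3) with the quasi-likelihood test, as were the 16 Tcon libraries, with Benjamini-Hochberg adjustment and a threshold of 0.1. Intervals are 95% and SE come from the test. Alternatives used DESeq2 1.42.0, limma 3.58.1 on log2(FPKM + 1), other scalings, filters and left-out libraries. The script was tested on simulated data. Named genes were the 15 largest rises and 15 largest falls with a mean of at least 5 CPM, called without each library in turn, members of 26 gene lists and 6 marker lists, the 5 largest differences between arms in each direction, and up to 5 Tcon genes in each direction. Members and lists were chosen with earlier results of these data known. Counts set the precision, since 1 CPM was at least 32.9 counts in every H16R library and 41 in every WT IL-2 library. Some items are not reported here.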

Additional observations from a re-analysis of the deposited data

Results flagged for a closer look

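Of 246 groups of 4 libraries examined, 2 for each of 123 genes, 12 (4.88%) held a library whose gap to the nearest other, divided by the range, passed Dixon's critical value for 4 samples, and chance alone gives about 1 in 20. H16R replicate 3 was the far library for Socs2 (0.83, 102 CPM against 72.2 to 77.4), Prkcq (0.85, 488 against 408 to 420), Itga6 (0.907, 213 against 182 to 184), Gbp2b (0.831, 26.6 against 18.4 to 19.8), Ifitm1 (0.831, 12.7 against 4.62 to 5.98) and Trf (0.991, 3.82 against 6.45 to 6.47). H16R replicate 2 was far for Nop56 (0.863, 98.6 against 94.4 to 95.0) and Mrc1 (0.849, 0.899 against 0.394 to 0.47). For WT IL-2, replicate 1 was far for Cdc25b (0.85, 248 against 188 to 197), replicate 2 for Amotl1 (0.834, 4.47 against 5.77 to 6.03) and Spp1 (0.908, 54.3 against 4.98 to 9.52), and replicate 3b for Lrrc32 (0.841, 597 against 573 to 577).

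The effect of H16R against WT IL-2 differed between the antibody arms by the edgeR interaction test at 2908 genes. The differences named were those of Spp1 (2.55), Gcg (2.13), Fam20a (2.12), Vdr (2.09) and Ifitm1 (1.98), and of Mrc1 (−3.28), Lrp1 (−3.12), Trf (−2.06), Cfp (−1.63) and Nfam1 (−1.27) on the log2 scale.

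Of the genes not annotated as protein-coding, 151 of 2588 genes were called (5.83%), 43 higher and 108 lower with H16R. The 2588 include immunoglobulin and T cell receptor genes and 93 symbols that the annotation did not hold (6 higher, 7 lower), some of them older names of protein-coding genes such as Ctgf and Mkl1. Among them 35 of 174 immunoglobulin variable genes and 5 of 12 constant genes fell and 0 rose.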

How the results depend on the processing

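The 2309 calls became 419 with the marker level as a covariate (chosen after seeing the data), 1471 at a threshold of 0.05 and 184 at a log2 fold change of at least 1, and 907 to 2394 when 1 library was left out, lowest without H16R replicate 3 and at 1516 without WT IL-2 replicate 2. The share called higher was 47.6%, but 30% by total counts alone and 32.6% with limma on FPKM. The 2908 interactions became 1800 at 0.05 and 187 at the fold minimum, and 1798 to 3903 without 1 library, at 1798 and 1883 without MHC II block H16R replicates 4 and 3. Their positive share of 53.5% was 64% by total counts alone, 71.1% with no filter and 68.5% with all biotypes. The 17 Tcon calls became 49 with DESeq2 size factors, 94 with no filter, 323 with DESeq2, 1 at 0.05, 8 at the fold minimum and 1 to 4080 without 1 library. Same-numbered libraries did not deviate together (r from −0.13 to 0.04), and a replicate block gave 2341 calls, 2148 of them also without it, while the replicate block in Tcons, added after seeing the data, left 1. None of the 123 genes given with levels changed direction with a call; 46 lost their call with the covariate, 13 without H16R replicate 3 and at most 8 in any other setting. The covariate did not overlap between the molecules, so a call lost with it cannot be assigned to other cells or to the molecule. Causes were not tested. Depth limits genes of a few counts, such as Siglech.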

Other observations

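Among genes outside the annotation's protein-coding class, the host genes of small nucleolar RNAs Snhg15 (log2 fold change −0.49 ± 0.10, edgeR adjusted p = 0.00316) and Snhg1 (−0.23 ± 0.06, edgeR adjusted p = 0.0191) were lower with H16R, with Snhg1 at 50.8, 52.8, 56.2 and 49.8 CPM with WT IL-2 and at 44.8, 44.4, 44.0 and 46.0 CPM with H16R. Gm15708 was higher, at 8.4, 5.91, 6.79 and 6.35 CPM and at 10.7, 10.4, 14.4 and 10.0 CPM (0.73 ± 0.12, edgeR adjusted p = 0.000541). Gm26532 was lower, at 12.9, 14.0, 16.4 and 19.1 CPM and at 7.38, 8.06, 5.68 and 10.4 CPM (−0.99 ± 0.16, edgeR adjusted p = 0.000376). In each of these 3 genes given by library the groups did not overlap. Igkc, which encodes the constant part of the κ light chain in B and plasma cells and has a class of its own in the annotation, was at 1760, 2280, 2180 and 2250 CPM with WT IL-2 and at 978, 1200, 643 and 1120 CPM with H16R, and lowest in H16R replicate 3. These genes were chosen after their values were seen.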
